A study of Sus scrofa with 32 samples.

Results

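The BAFF and APRIL system was followed through 5 of the 25880 genes in the count matrices, picked by their symbols: the receptors *TNFRSF13B* (TACI), *TNFRSF13C* (BAFF-R) and *TNFRSF17* (BCMA) and the ligands *TNFSF13B* (BAFF) and *TNFSF13* (APRIL). All 5 symbols were found, and each gene was read in every cell class of the ileum and of peripheral blood mononuclear cells (PBMC). BAFF and APRIL are relatives of tumour necrosis factor that keep B cells and plasma cells alive. BAFF-R binds BAFF alone and carries the survival signal of mature B cells, TACI and BCMA bind both ligands, and BCMA is known for sustaining plasma cells in bone marrow. In the gut, myeloid, epithelial and stromal cells are known sources of the ligands, and TACI is known for its part in switching to IgA.

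The samples came from 2 mixed-breed pigs of 7 weeks of age, pig 1 labelled female and pig 2 labelled male, with no treatment named in the labels. Each pig gave 4 single-cell RNA-seq libraries made with 10x 3′ chemistry, which counts unique molecular identifiers (UMIs) at the 3′ end of transcripts. These were ileum with Peyer's patches (PP), ileum without Peyer's patches (non-PP), a whole cross section of ileum and PBMC. The ileal suspensions had been enriched for viable lymphocytes, so myeloid, epithelial and stromal cells are what that enrichment left, and their numbers say nothing about the tissue.

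The 8 libraries held 21134542 to 40111934 UMIs over all barcodes. After the study's filters on UMIs, genes and mitochondrial share per cell, and after removal of doublets, 3645 to 7414 cells per library remained, 34188 from ileum and 12878 from blood. Any pair of libraries shared 20 to 76 cell barcodes, at most 1.22% of the smaller library. The whole ileum library labelled pig 1 went against its label: 46.7% of its cells held a UMI of a Y-linked gene, against 0.0706% and 0.0265% in the PP and non-PP libraries of pig 1, none in its PBMC library, and 39.3% to 49.0% in the 4 libraries of pig 2. Sums called pig 1 below include that library, results whose call changes without it are given both ways, and "pig 1" is a statement of the label only. The p-values of fits with ileal sums thus measure the spread between sums of the labelled pigs, which may hold cells of the same animal. Fits that leave out a whole pig used sums per library in the ileum, and in blood they gave values with no test. In the ileum their p-values thus measure the spread between libraries of 1 pig, not between pigs. The ileal fits with pig 1 alone include the whole ileum library that goes against its label.

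Cell classes were built by clustering without the 5 genes and named from marker panels, so each name below stands for cells like that type. Levels are given as CPM, the UMIs of a gene per 1000000 UMIs of all genes in the summed cells of a class in 1 pig. They are not divided by transcript length and were compared within a gene, not between genes. Levels outside cells set the background. In barcodes with at most 100 UMIs, *TNFRSF13B* lay at 10.1 to 28.5 CPM across the 8 libraries, *TNFRSF13C* at 2.08 to 55.9, *TNFRSF17* at 0.694 to 8.73, *TNFSF13B* at 1.16 to 18.4 and *TNFSF13* at 0 to 1.19 CPM.

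The 3 receptors had different patterns across the B lineage. *TNFRSF17* was found in antibody-secreting cells (ASCs) and in B cells with plasma genes and was near background elsewhere. *TNFRSF13B* was highest in the same classes, had intermediate levels in resting B cells and was lower in germinal centre and cycling B cells. *TNFRSF13C* ran the other way, with its highest levels in resting and germinal centre B cells and its lowest in ASCs. In the ileal fit over 2 pigs, with edgeR's quasi-likelihood test adjusted over 11544 genes, all 3 receptors differed between ASCs and resting B cells, where 24.9% of all genes tested were called in either direction.

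*TNFRSF17*, the receptor that sustains plasma cells (Sscrofa11.1 chromosome 3, 31137672 to 31141862, overlapping the locus LOC100739121), stood at 147 CPM in the ileal ASCs of pig 1 and 164 CPM in those of pig 2, from 207 and 315 cells. B cells with plasma genes, a cluster that holds B markers together with *JCHAIN*, had 48.6 and 45.7 CPM in 232 and 479 cells. Resting B cells had 5 and 6 cells with a UMI among 1446 and 1195 cells. The 3 classes thus formed steps that did not overlap between the pigs. The 6 ileal libraries gave 119 to 175 CPM for ASCs, and no library of resting, germinal centre or cycling B cells exceeded 2.07 CPM. ASCs exceeded resting B cells by 7.98 on the log2 scale (SE 0.36, edgeR adjusted p = 1.9e-14). B cells with plasma genes exceeded them by 4.97 (SE 0.38, edgeR adjusted p = 1.1e-09). In that second comparison 17.4% of all genes were called, and *TNFRSF17* and *TNFRSF13B* were the receptors among them.

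At this depth the transcript was not seen in every ASC. A *TNFRSF17* UMI was seen in 48.3% and 54.3% of ileal ASCs at medians of 7535 and 6976 UMIs per cell, and in 17.4% and 14.6% after every cell was thinned to the smallest number of UMIs the filter allowed. Thinned shares in B cells with plasma genes were 5.17% and 3.13%. In gamma delta T cells, which should lack the gene, they were 0.0442% and 0% (unthinned medians of 2774.5 and 2715 UMIs). Germinal centre B cells had 1.26 and 0.639 CPM and did not pass the test against resting B cells (log2 difference -0.70, SE 0.61, edgeR adjusted p = 0.46). Both values lay below the 5.32 to 8.73 CPM of barcodes without cells in the PP and whole ileum libraries. Cycling B cells, at 0.503 and 0.260 CPM, were lower by edgeR (log2 difference -1.97, SE 0.61, adjusted p = 0.012), a call made among values under 2 CPM. It was lost without the whole ileum library labelled pig 1 (-1.80, edgeR adjusted p = 0.065) and without that of pig 2 (-1.81, edgeR adjusted p = 0.053), and with pig 1 alone the difference was -1.21 (edgeR adjusted p = 0.31).

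*TNFRSF13B*, which encodes TACI (Sscrofa11.1 chromosome 12, 61245976 to 61270154), reached 107 and 120.5 CPM in ileal ASCs and 112 CPM in B cells with plasma genes of both pigs. Resting B cells had 46.3 and 49.2 CPM. Germinal centre B cells had 24.9 and 20.6 CPM, and cycling B cells 18.5 and 10.9 CPM. Barcodes without cells in the PP and whole ileum libraries held 18.0 to 28.5 CPM, a range that held both germinal centre values. The cycling values lay within it in pig 1 and below it in pig 2, and the part of free RNA was not tested. In CPM the ASC and plasma gene values overlapped, and every other pair of states was separate in both pigs. A few abundant genes lower the CPM of ASCs, as given below, so this overlap holds for CPM alone. Without the whole ileum library labelled pig 1, pig 1 had 21.9 CPM in cycling and 21.2 CPM in germinal centre B cells, so that these states overlapped and had the opposite order in pig 1. ASCs were above resting B cells by 2.41 (log2, SE 0.28, edgeR adjusted p = 1.9e-07), and B cells with plasma genes by 1.09 (SE 0.28, edgeR adjusted p = 0.0065). ASCs and B cells with plasma genes were not tested against each other. The plasma gene call was lost without the whole ileum library labelled pig 1 (1.00, edgeR adjusted p = 0.10). Germinal centre B cells were below resting B cells (log2 difference -1.29, SE 0.28, edgeR adjusted p = 0.0011), in a comparison that called 25.9% of all genes and 1 of the 3 receptors. With pig 1 alone that call was lost (-0.92, edgeR adjusted p = 0.11). Cycling B cells differed by -1.90 (SE 0.28, edgeR adjusted p = 4.9e-06), in a comparison that called 37.1% of all genes and all 3 receptors.

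**Figure D1:**
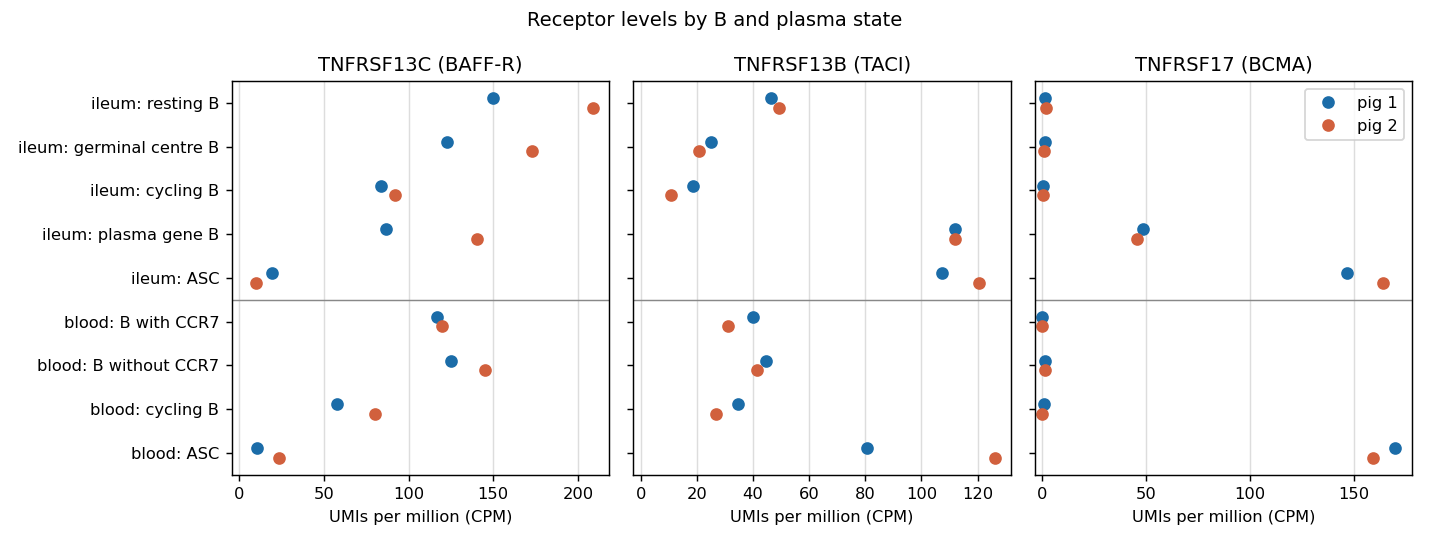
Level of each receptor in CPM (horizontal axes, linear, with a range of its own in each panel) in 5 ileal and 4 blood B lineage classes (rows), with 1 point per pig. *TNFRSF17* is far from 0 in ASCs (147 and 164 CPM in the ileum) and in B cells with plasma genes, *TNFRSF13B* is lowest in ileal cycling B cells (18.5 and 10.9 CPM), and *TNFRSF13C* is lowest in ASCs (19.4 and 10.1 CPM in the ileum).

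*TNFRSF13B* also varied inside the classes. Among resting B cells, cluster 3 held 71.2 and 61.6 CPM and cluster 2 held 20.4 and 30.9 CPM. Among germinal centre B cells, cluster 10 held 47.0 and 41.3 CPM and cluster 15 held 16.0 and 11.3 CPM. Cluster 10 thus lay near the mean of resting B cells in both pigs, and clusters 2 and 15 well under it. Cluster 3 was also the deeper one, with medians of 4678 and 3970.5 UMIs per cell against 1984 and 1925 in cluster 2. The remaining germinal centre cluster, 11, had 10.2 CPM in pig 1 and came to 97.2% from the PP library of pig 1, so cluster and library cannot be told apart there. Clusters were built from these same cells, and the differences between them were not tested.

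*TNFRSF13C*, which encodes BAFF-R (Sscrofa11.1 chromosome 5, 6699812 to 6703403), was at 150.1 and 209 CPM in resting B cells and 123 and 173 CPM in germinal centre B cells. B cells with plasma genes had 86.8 and 140.3 CPM and cycling B cells 83.5 and 92.2 CPM. ASCs had 19.4 and 10.1 CPM, below every other B lineage class in both pigs and under the 36.6 to 55.9 CPM of barcodes without cells in the PP and whole ileum libraries. Pig 2 was above pig 1 in each of the 4 B cell classes. The classes kept this order within each pig as labelled, neighbouring B cell classes overlapped across the pigs, and ASCs stood apart. Without the whole ileum library labelled pig 1, that pig had 76.1 CPM in B cells with plasma genes and 82.1 CPM in cycling B cells, the opposite order. ASCs were lower than resting B cells by edgeR (log2 difference -2.53, SE 0.39, adjusted p = 1.1e-05).

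Among the smaller differences of *TNFRSF13C*, cycling B cells stood at -1.22 from resting B cells on the log2 scale (SE 0.30, edgeR adjusted p = 0.0018), and lost the call with pig 1 alone (-1.08, edgeR adjusted p = 0.12). B cells with plasma genes missed the threshold (log2 difference -0.79, 95% interval -1.42 to -0.15, edgeR adjusted p = 0.084). With pig as a block the same difference passed it (-0.79, edgeR adjusted p = 0.020). It also passed without the non-PP library of pig 1 (-0.75, edgeR adjusted p = 0.038) and without the whole ileum library of pig 2 (-0.90, edgeR adjusted p = 0.034). Germinal centre B cells did not pass the test (log2 difference -0.51, 95% interval -1.12 to 0.10, edgeR adjusted p = 0.23).

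**Figure D2:**
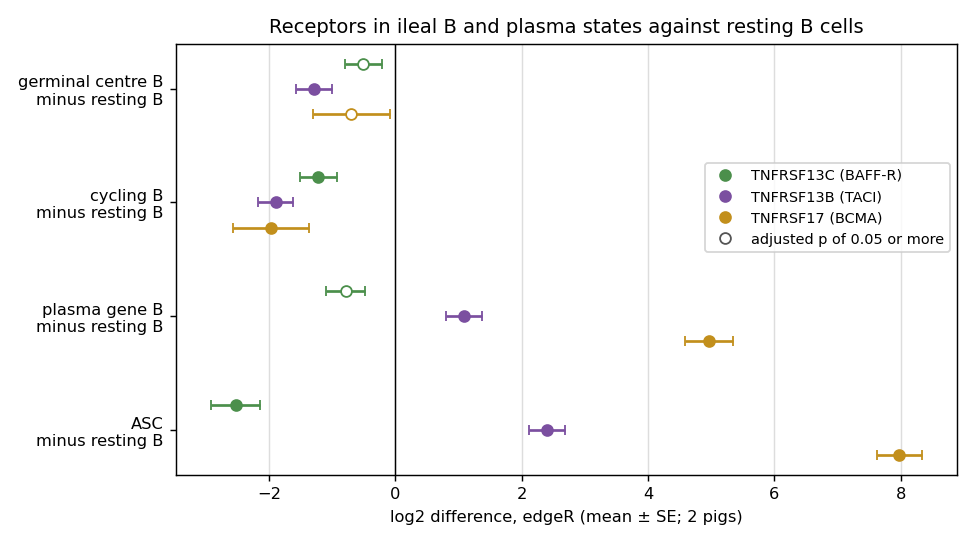
Log2 differences of the 3 receptors from resting B cells of the ileum (horizontal axis) for 4 B lineage classes, with bars of 1 standard error from edgeR over 2 pigs and open points for adjusted p of 0.05 or more. The ASC row spans from -2.53 for *TNFRSF13C* to 7.98 for *TNFRSF17*, and the germinal centre row has 1 filled point, *TNFRSF13B* at -1.29.

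The ASC values depend on how libraries are scaled. In ileal ASCs the 20 most abundant genes took 65.0% and 68.0% of all UMIs, against 19.0% and 19.9% in resting B cells, which lowers the CPM of all other genes. TMM scaling factors, which correct for such a shift, were 0.447 and 0.390 in ileal ASCs and 1.02 and 0.992 in B cells with plasma genes. With library totals alone the median of all genes in ASCs minus resting B cells moved from -0.06 to -1.20 on the log2 scale, and the 3 receptors kept direction and call. On that scale the difference was 1.26 for *TNFRSF13B*, -3.66 for *TNFRSF13C* and 6.83 for *TNFRSF17*. Without the whole ileum library labelled pig 1 and with TMM, the 3 receptors also kept their calls between ASCs and resting B cells, at 2.35, -2.45 and 7.93 in the same order.

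Receptors were also read together in single cells. In ileal ASCs, *TNFRSF13B* was detected in 60% and 60.2% of the cells with a *TNFRSF17* UMI and in 38.3% and 36.1% of the cells without one. In B cells with plasma genes the shares were 59.4% and 51.0% with *TNFRSF17* against 18.0% and 16.4% without. *TNFRSF13C* ran the other way in those cells: it was seen in 28.1% and 15.7% with a *TNFRSF17* UMI against 31.0% and 37.6% without, a small gap in pig 1 and a wider one in pig 2. In ileal ASCs it did not, with 14.0% and 8.77% with a *TNFRSF17* UMI against 13.1% and 6.25% without. Cells with more UMIs show more of every gene, and these shares were not corrected for depth.

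Blood ASCs had receptor levels of the same order as ileal ASCs. *TNFRSF17* was at 169.8 and 159 CPM, *TNFRSF13B* at 80.4 and 126 CPM and *TNFRSF13C* at 10.4 and 23.6 CPM in 62 and 57 cells. Blood B cells other than cycling ones and ASCs had 5 UMIs of *TNFRSF17* in each pig. The 20 leading genes took 23.1% and 24.4% of UMIs in blood ASCs, far less than in the ileum, so CPM of both tissues are not on one scale for this class and no test between them was made.

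Those blood B cells were split by whether a cell held a UMI of *CCR7*, the lymph node homing receptor. *TNFRSF13C* was at 117 and 119.7 CPM with *CCR7* and at 125 and 145 CPM without it. *TNFRSF13B* was at 40.0 and 31.2 CPM with *CCR7* and at 44.5 and 41.4 CPM without it. Both genes were a little lower with *CCR7* in each pig. The differences were 0.19 for *TNFRSF13C* (95% interval -0.58 to 0.96) and 0.29 for *TNFRSF13B* (95% interval -0.51 to 1.08) on the log2 scale. No member passed edgeR's test, as 0.0109% of all 9154 genes did, 1 gene. *CCR7* itself differs between these cells by the way they were split. No member reached an unadjusted p of 0.05 in edgeR either, and *TNFRSF17* had 10 UMIs over both pigs, none of them in cells with *CCR7*. DESeq2 and the fit with pig as a block made no call for *TNFRSF13B* or *TNFRSF13C* either.

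Ileal resting B cells were set against blood B cells of both kinds in a fit over both tissues. *TNFRSF13C* had 150.1 and 209 CPM in the ileum against 124 and 139 CPM in blood, a log2 difference of 0.50 (95% interval -0.21 to 1.21, edgeR adjusted p = 0.37). *TNFRSF13B* had 46.3 and 49.2 CPM against 43.9 and 39.1 CPM, a difference of 0.26 (95% interval -0.39 to 0.90, edgeR adjusted p = 0.65). Both were higher in the ileum in both pigs and neither passed the test, in a comparison that called 17.5% of 11714 genes. Without the whole ileum library labelled pig 1, *TNFRSF13C* in resting B cells of pig 1 was at 136 CPM, below the 139 CPM of blood B cells of pig 2. Tissue and the preparation of the suspensions cannot be told apart here.

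The ileal dissections were compared within ASCs, with sums per library. PP libraries held 114 and 139 ASCs and non-PP libraries 11 and 22. *TNFRSF17* in ASCs was at 147 and 160.5 CPM in PP, 128 and 119 CPM in non-PP and 149 and 175 CPM in whole ileum. Both non-PP values were thus the lowest of the 6. The difference of PP from non-PP was 0.74 on the log2 scale (SE 0.29, 95% interval 0.13 to 1.35) and was not called by edgeR (adjusted p = 0.39), in a comparison that called 0.291% of 9263 genes, 27 genes, and no member. The median of all genes tested was itself 0.52 in this comparison, and 0.12 with library totals alone.

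*TNFRSF13B* in ASCs was at 126 and 103 CPM in PP and 74.8 and 178 CPM in non-PP. The non-PP values lay on both sides of the PP values, and the difference of 0.08 (95% interval -0.87 to 1.04, edgeR adjusted p = 0.98) had the opposite sign with library totals alone (-0.30), with DESeq2 (-0.21) and with RLE size factors (-0.28). *TNFRSF13C* was at 24.3 and 13.2 CPM in PP and 0 and 9.92 CPM in non-PP, a log2 difference of 1.85 (95% interval -0.22 to 3.92, edgeR adjusted p = 0.54). For resting B cells no test was made, because the non-PP libraries held 13 and 6 of them and a sum was required to hold at least 10 cells.

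Outside the B lineage, *TNFRSF13C* UMIs were found in myeloid cells of the ileum. Macrophages, named from a panel of monocyte and complement genes, had 87.3 and 38.2 CPM in 96 and 99 cells, and dendritic cells 41.1 and 15 CPM in 94 and 110 cells. The CD4, CD8B and gamma delta T cells of the ileum had at most 4.88 CPM, so both myeloid classes were above them in both pigs. Macrophages exceeded the mean of these T cells by 4.82 (log2, SE 0.50, edgeR adjusted p = 1.4e-08), where 28.8% of all genes were called. Dendritic cells exceeded it by 3.61 (SE 0.61, edgeR adjusted p = 4.3e-05), where 25.9% were called, and lost the call with either pig alone (2.78 and 3.17, edgeR adjusted p = 0.065 and 0.060). Without the whole ileum library labelled pig 1, macrophages of pig 1 had 111 CPM, and the macrophage call was kept (4.77, edgeR adjusted p = 5.8e-07).

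Blood monocytes, the circulating relatives of macrophages, had 6.66 and 2.47 CPM of *TNFRSF13C*. Both values lay under the 18.8 and 21.0 CPM of barcodes without cells in the same blood libraries, and the part of free RNA was not tested. The monocyte level was 2.36 above blood T cells on the log2 scale (SE 0.64, edgeR adjusted p = 0.0060), with 48.7% of all genes called. In pig 2 alone the difference was 4.22, where CD8B T cells held 3 UMIs and CD4 and gamma delta T cells 0. Ileal macrophages exceeded blood monocytes by 3.92 (SE 0.55, edgeR adjusted p = 2.4e-06), with 20.6% of genes called. Here too tissue and preparation cannot be told apart.

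B cell transcripts were present in these myeloid sums. *CD79B*, a chain of the B cell receptor complex, was at 67.6 and 92.2 CPM in macrophages, 18.5 and 68.3 CPM in dendritic cells and 925 and 841 CPM in resting B cells. *MS4A1* (CD20) was at 52.4 and 38.2 CPM in macrophages, 8.21 and 26.7 CPM in dendritic cells and 614 and 564 CPM in resting B cells. Summed over each myeloid class, both B cell genes were below their resting B level in both pigs. In dendritic cells they were higher in pig 2 and *TNFRSF13C* was higher in pig 1. The part of B cell transcripts in the myeloid values was not tested. Among the macrophage clusters, cluster 24.3 had 132 and 44.0 CPM and cluster 24.0 had 80.3 and 92.0 CPM. Cluster 24.4 had 0 and 14.7 CPM and cluster 24.5 had 22.4 and 0 CPM, so that 53 of the 57 *TNFRSF13C* UMIs of macrophages lay in clusters 24.0 and 24.3, which held 106 of the 195 cells. Cluster 24.4, with 11 and 32 cells, had the complement genes *C1QA*, *C1QB* and *C1QC* together at 0 and 14.7 CPM. Clusters 24.0 and 24.3 had them at 10059 to 31645 CPM, so cluster 24.4 is named from the rest of the panel. The dendritic cluster 24.1 had 57.7 and 22.4 CPM, and dendritic cluster 24.2 had no UMI in 31 and 27 cells. The B marker panel as a whole was at 257 and 802 CPM in cluster 24.0 and 144 and 58.7 CPM in cluster 24.3. Resting B cells had 2094 and 1937 CPM of it. *TNFRSF13C* UMIs per UMI of that panel were 0.31 and 0.11 in cluster 24.0 and 0.91 and 0.75 in cluster 24.3. They were 2.57 and 0.11 in dendritic cluster 24.1 and 0.072 and 0.108 in resting B cells. By library, macrophages ranged from 0 CPM in non-PP pig 2 to 139.6 CPM in PP pig 1. Barcodes without cells held 45.8 and 55.9 CPM in the PP libraries and 2.08 and 2.68 CPM in the non-PP libraries, and the part of such free RNA in the myeloid values was not tested.

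*TNFRSF13B* appeared at lower levels in innate and gamma delta lymphocytes. Group 1 innate lymphoid cells (ILCs) are lymphocytes without a T cell receptor. Here they were named from ileal clusters where most cells held *CD2* and most lacked the T cell gene *CD3E*, so T cells may be among them. They had 18.4 and 20.6 CPM and gamma delta T cells 16.4 and 14.0 CPM. CD8B T cells had 6.87 and 3.81 CPM and CD4 T cells 5.49 and 0.815 CPM. The 4 classes kept this order in both pigs as labelled. Without the whole ileum library labelled pig 1, that pig kept 4 group 1 ILCs with 0 UMIs of the gene. The place of group 1 ILCs in the order is thus not shown in its other libraries. Group 1 ILCs exceeded the mean of the 3 T cell classes by 1.42 (log2, SE 0.34, edgeR adjusted p = 0.0030), where 19.8% of all genes were called. That call was lost without non-PP pig 2 (1.14, edgeR adjusted p = 0.11) and with pig 1 alone (1.02, edgeR adjusted p = 0.37), and 431 of the 435 group 1 ILCs of pig 1 came from the whole ileum library that goes against its label.

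Blood NK cells had 15 and 10.4 CPM of *TNFRSF13B*, against 7.85 and 6.04 CPM in blood gamma delta T cells, 5.76 and 1.84 CPM in CD8B T cells and 2.26 and 2.35 CPM in CD4 T cells. NK cells thus stood above the T cell classes in both pigs. They exceeded them by 1.57 (log2, SE 0.40, edgeR adjusted p = 0.012), with 21.2% of genes called. These NK levels lay close to the 14.6 and 10.1 CPM of barcodes without cells in the same blood libraries. In the ileum such barcodes held 15.3 to 28.5 CPM, a range that also held both group 1 ILC values. The ileal gamma delta T cell values, 16.4 and 14.0 CPM, lay within it in pig 1 and below it in pig 2. Those of ileal CD8B and CD4 T cells lay below it in both pigs. The part of free RNA in these values was not tested. Nearly all NK cells of pig 1 were in blood cluster 6, where 41.7% of cells held a *CD3E* UMI, a T cell gene, and most of those of pig 2 in cluster 20, where 10.5% did, and its part in the NK values was not tested either. *CD79B* was at 15 and 11.07 CPM in NK cells, against 3.39 to 13.6 CPM in the same blood T cell classes, and at 22.0 and 12.3 CPM in group 1 ILCs.

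Cluster 37, a small T cell cluster, stood apart. All of its 88 cells had a *CD3E* and a *TRDC* UMI, its leading genes included *XCL1* and *FGR*, and *TNFRSF13B* was at 67.4 and 99.3 CPM from 13 and 11 UMIs, with no *TNFRSF13C* UMI in either pig. In 5 of its 6 libraries the gene was between 30.3 and 129.7 CPM. The other, PP pig 2, had no UMI of it among 19679 UMIs in 6 cells, too few to show absence. Each non-PP library held 10 UMIs of the gene, from 40 and 22 cells. PP pig 1 and the whole ileum libraries of pig 1 and pig 2 held 2, 1 and 1, from 4, 10 and 6 cells, so their levels rest on single UMIs. The cluster was singled out after its values were seen, from 47 ileal clusters.

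**Figure D3:**
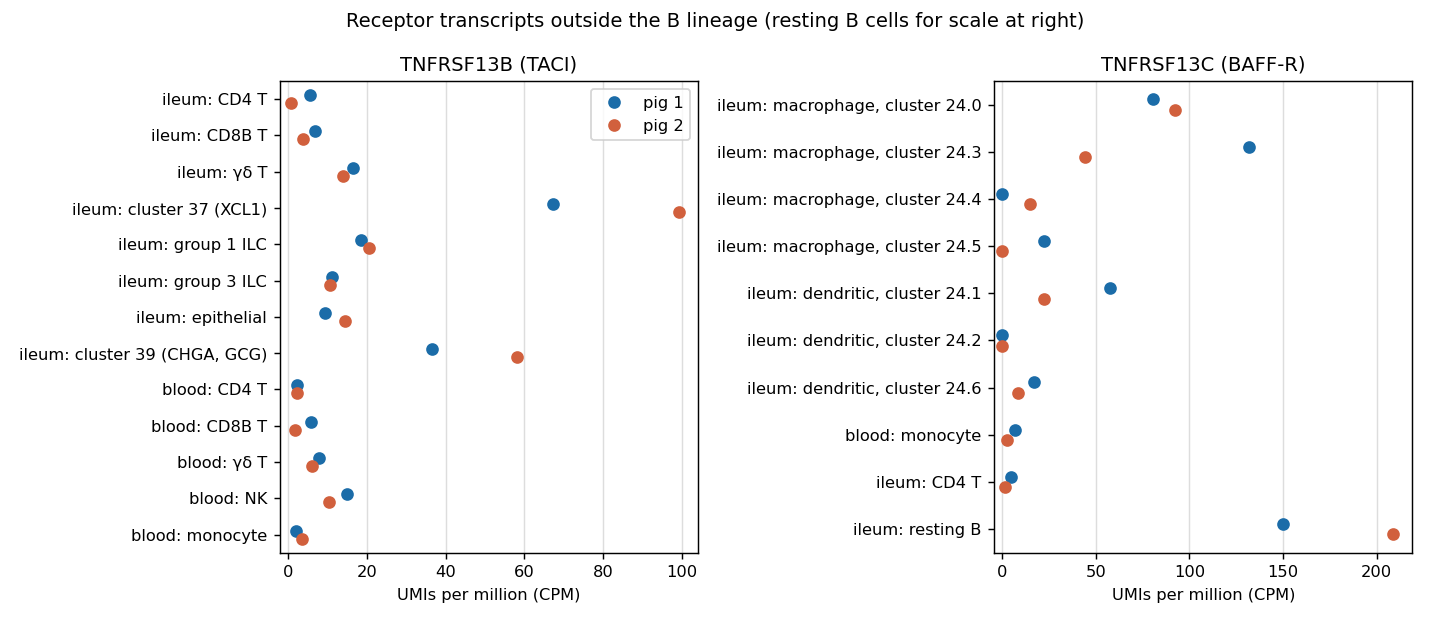
Levels in CPM (horizontal axes, linear) of *TNFRSF13B* in T, ILC, NK, epithelial and monocyte classes and a pair of clusters (left) and of *TNFRSF13C* in the myeloid clusters, with blood monocytes, CD4 T cells and resting B cells for scale (right), 1 point per pig. At left, cluster 37 (67.4 and 99.3 CPM) and the hormone gene cluster 39 (36.7 and 58.2 CPM) lie above the other rows, and at right, clusters 24.0 and 24.3, both of macrophages, come nearest to resting B cells.

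Epithelial cells had *TNFRSF13B* at 9.51 and 14.5 CPM, below the 15.3 to 28.5 CPM of barcodes without cells in the ileal libraries. The part of free RNA in these levels was not tested. By edgeR the epithelial level was 0.83 above the T cell mean on the log2 scale (SE 0.35, adjusted p = 0.046), where 58.8% of all genes were called. The call was lost without PP pig 2 (0.85, edgeR adjusted p = 0.079), without the whole ileum library labelled pig 1 (0.86, edgeR adjusted p = 0.092) and without that of pig 2 (0.64, edgeR adjusted p = 0.084), and with pig 1 alone it was 0.25 (edgeR adjusted p = 0.63) against 2.04 with pig 2 alone. Cluster 39, the epithelial cluster led by hormone genes such as *GCG*, *SST* and *PYY*, had 36.7 and 58.2 CPM from 7 UMIs in each pig, and 22.2% of its 54 cells held a *CD3E* UMI. In stromal cells *TNFRSF17* passed edgeR's test (3.16, SE 1.00, adjusted p = 0.013), with 38.2% of genes called, but all 4 UMIs lay in 1 cell of PP pig 2, and without that library the difference had the opposite sign (-3.71, edgeR adjusted p = 0.54).

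*TNFSF13B*, which encodes BAFF (Sscrofa11.1 chromosome 11, 75599296 to 75633044), was found in 3 kinds of cells. Blood monocytes had 63.1 and 97.3 CPM, ileal macrophages 56.7 and 69.7 CPM and ileal group 3 ILCs 75.7 and 49.2 CPM. The CD4, CD8B and gamma delta T cells of the ileum lay at 1.06 to 3.41 CPM and dendritic cells at 6.16 and 8.33 CPM. In both pigs each of the 3 classes was above all other named classes of its tissue, without overlap, apart from macrophages and group 3 ILCs, which overlapped each other.

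Macrophages, which take up debris and are known to release BAFF, exceeded ileal T cells by 4.97 (log2, SE 0.47, edgeR adjusted p = 3.7e-09). The gene was called together with *TNFRSF13C*, the 2 members called in that comparison, where 28.8% of all genes were called. By library macrophages ran from 40.1 to 88.0 CPM, so every library held the transcript. It was seen in 25.0% and 22.2% of macrophages at medians of 2942 and 3719 UMIs, and in 7.29% and 5.05% after thinning, against 0.309% and 0.452% of gamma delta T cells. Blood monocytes exceeded blood T cells by 5.30 (SE 0.60, edgeR adjusted p = 2.6e-06), where 48.7% of all genes were called. The transcript was seen in 31.4% and 46.5% of monocytes and, thinned, in 8.64% and 11.08%. In single pigs the difference from blood T cells was 6.14 for pig 1 and 4.92 for pig 2. Macrophages and monocytes did not differ detectably (log2 difference -0.46, 95% interval -1.60 to 0.67, edgeR adjusted p = 0.65).

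Group 3 ILCs, innate lymphocytes known for making interleukin 22 and named here from a panel with *IL22* and *KIT*, exceeded T cells by 4.99 (log2, SE 0.47, edgeR adjusted p = 1.4e-08). *TNFSF13B* was the 1 member called of the 4 tested there, where 10.7% of all genes were called. The 6 libraries gave 56.4 and 83.1 CPM in PP, 33.8 and 12.3 CPM in non-PP and 121 and 40.0 CPM in whole ileum. Both non-PP values were below the 4 others. The 6 levels rest on 34 UMIs in all of pig 1 and 23 in all of pig 2, from 20 to 59 cells per library. This difference between dissections was not tested. A *TNFSF13B* UMI was seen in 20% and 12.4% of the 115 and 153 cells, thinned 8.70% and 7.19%, a range that overlaps the thinned shares of macrophages. Without the whole ileum library labelled pig 1, group 3 ILCs of pig 1 stood at 49.3 CPM and the difference from T cells was 4.83 (edgeR adjusted p = 1.9e-05).

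Dendritic cells, with a log2 difference of 1.89 from T cells (95% interval 0.23 to 3.55), missed the threshold in edgeR (adjusted p = 0.090) and passed it in 4 alternatives. All dendritic *TNFSF13B* UMIs of pig 1 came from the whole ileum library labelled pig 1, and without it that pig was at 0 CPM and the difference was 1.71 (edgeR adjusted p = 0.35). Without PP pig 2 it was 1.28 (edgeR adjusted p = 0.44). Stromal cells, at 9.37 and 20.9 CPM from 4 and 6 UMIs, passed it in edgeR (2.46, SE 0.76, adjusted p = 0.012) and lost the call without the whole ileum library labelled pig 1 (2.25, edgeR adjusted p = 0.0996) and with either pig alone (2.02 and 2.48). Epithelial cells had 1.16 and 6.81 CPM and did not pass (0.82, SE 0.57, edgeR adjusted p = 0.23), but passed without the non-PP library of pig 1 (1.22, edgeR adjusted p = 0.043) and with pig 2 alone (1.60, edgeR adjusted p = 0.034). Mast cells had no UMI among 129555 and 79456, which allows up to 23.2 and 37.8 CPM, and no member was called in the mast comparison by edgeR, where 13.2% of all genes were. ASCs, which carry the receptors, had 0 and 2 *TNFSF13B* UMIs.

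**Figure D4:**
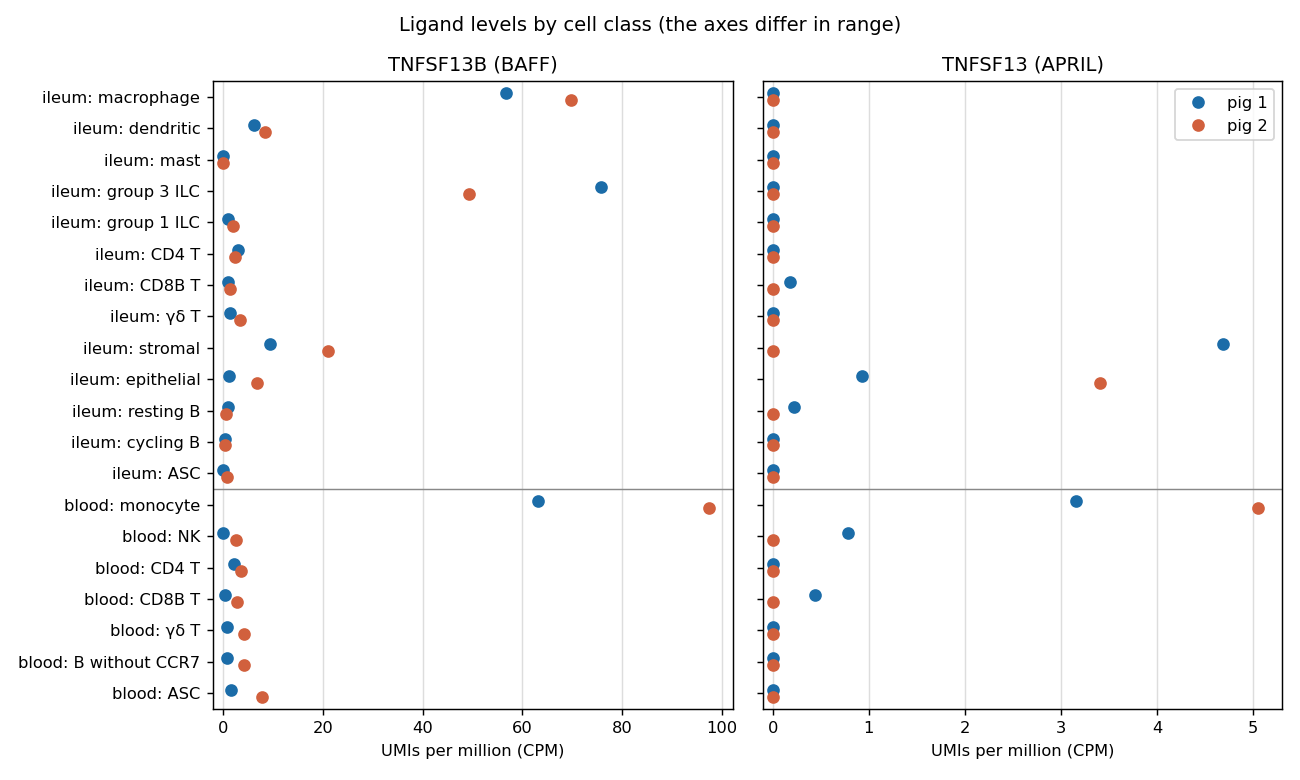
Levels of *TNFSF13B* and *TNFSF13* in CPM (horizontal axes, linear, with different ranges) in most of the named classes of ileum and blood, 1 point per pig. For *TNFSF13B*, blood monocytes, ileal macrophages and ileal group 3 ILCs lie between 49.2 and 97.3 CPM and the other classes shown at or below 20.9 CPM, and for *TNFSF13* no class shown exceeds 5.05 CPM.

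In blood, pig 2 was above pig 1 for *TNFSF13B* in 9 of 10 classes. The free RNA moved the same way, with 18.4 CPM in barcodes without cells of pig 2 and 5.92 CPM in those of pig 1. Monocytes of blood cluster 1 had 60.7 CPM in pig 1 (430 cells) and 61.1 CPM in pig 2 (39 cells). Most monocytes of pig 2 lay in a pair of other clusters, at 98.9 CPM in 802 cells, with *ISG12(A)* and *CXCL10* among the leading genes, and at 97.7 CPM in 422 cells. Pig 1 almost lacked both clusters, with 4 and 6 cells, so cluster and pig cannot be told apart there. The values of the shared cluster lay close together, but that of pig 2 rests on 39 cells. The part of these clusters in the difference between the pigs was not tested.

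*TNFSF13*, which encodes APRIL (Sscrofa11.1 chromosome 12, 52853646 to 52857033), was hardly detected in these libraries, with 74 UMIs in all named classes and none in 18 of 26 classes. Blood monocytes held most of it, with 9 and 45 UMIs, or 3.16 and 5.05 CPM. Epithelial cells had 0.928 and 3.41 CPM from 4 and 8 UMIs, and stromal cells had 2 UMIs in pig 1 and none in pig 2. Ileal macrophages had no UMI among 458249 and 444727, which allows up to 6.55 and 6.75 CPM, a limit above the monocyte levels. The gene did not pass the filter on low counts in the ileal or the blood fit, so it has no test there. In the fit over both tissues it passed that filter and was not called between macrophages and monocytes (edgeR adjusted p = 0.15). Its locus begins 317 bases after that of *TNFSF12* (TWEAK) ends, a gene that had 31 and 231 UMIs in the same monocytes. How reads near that border were assigned was not tested.

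The wider pathway was read from 33 listed genes, of which 31 had counts. In ASCs against resting B cells, where 24.9% of all genes were called, 5 of them rose and 13 fell. The median log2 difference of the list was -0.80 against -0.06 for all genes tested. With library totals alone, 2 rose and 23 fell. *SDC1* (CD138, a plasma cell proteoglycan that also binds APRIL) rose by 8.37, and the survival gene *BCL2L1* (Bcl-xL) by 2.32. The kinase genes *PIM2* and *PIM1* rose by 1.35 and 1.28 and *MCL1*, on which plasma cells are known to depend, by 0.63, but with library totals alone the *PIM2* and *PIM1* calls were lost (0.20 and 0.15) and *MCL1* had the opposite sign (-0.50). Those that fell included the receptor *CD40* (-2.85), the lymphotoxin genes *LTA* (-4.37) and *LTB* (-3.52), the adaptors *TRAF5* (-3.70) and *TRAF3* (-1.43), and the NF-κB subunits *REL* (-2.45), *NFKB1* (-1.75) and *NFKB2* (-1.40). *FURIN*, the protease that cleaves both ligands, fell too (-1.75).

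B cells with plasma genes had 3 pathway genes higher and 13 lower than resting B cells, with a median of -0.83, where 17.4% of all genes were called. The higher genes were *BCL2L1* at 3.29, *SDC1* at 5.20 and *PIM1* at 0.77. Germinal centre B cells had 2 higher, *BCL2L1* at 2.30 and the NF-κB subunit *RELB* at 1.47, and 16 lower, with a median of -0.72 against 0.00 for all genes. In that comparison 25.9% of all genes were called. Cycling B cells had 1 higher, *BCL2L1* at 1.69, and 18 lower, with a median of -0.91, where 37.1% of all genes were called. Among the lower genes were *BCL2A1*, a survival gene induced by NF-κB, at -2.30 in germinal centre and -2.95 in cycling B cells, and the inhibitor gene *NFKBIA*, at -2.22 and -2.33. *BCL2L1* was thus higher, and *NFKB1*, *NFKB2*, *REL* and *TRAF3* lower, than in resting B cells in all 4 comparisons, which share their resting B cells. With pig 1 alone 5 pathway genes were called in B cells with plasma genes and 9 in germinal centre B cells.

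Among cells that carried the ligand, group 3 ILCs had 13 of 31 pathway genes higher than T cells and none lower, with a median of 0.88 against -0.13 for all genes, in a comparison that called 10.7% of all genes. They included the lymphotoxin receptor gene *LTBR* (4.31), *FURIN* (3.87), *LTA* (3.76), *LTB* (3.48), *CD40LG* (2.64) and *NFKB1* (2.38). Macrophages had 8 higher and 5 lower, where 28.8% of all genes were called, with *LTBR* at 6.32 and *CD40* at 4.86, and with pig 1 or pig 2 alone 7 and 8 were called. Blood monocytes had 11 of 30 higher and 6 lower, where 48.7% of all genes were called, with *LTBR* at 8.19, *CD40* at 5.79 and *FURIN* at 1.49. In ileal against blood B cells, where no receptor was called, 14 of 31 pathway genes were higher and 1 lower, against 17.5% of all genes called in either direction, with a median of 0.75 against 0.00 for all genes. The NF-κB inhibitor gene *TNFAIP3* (2.97), *BCL2A1* (2.94), *FURIN* (2.67) and *NFKBIA* (2.35) were among the higher genes, and *TNFSF12* was the lower one (-2.28), and with pig 1 alone 9 were called. Tissue and the preparation of the suspensions cannot be told apart for these genes either.

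**Figure D5:**
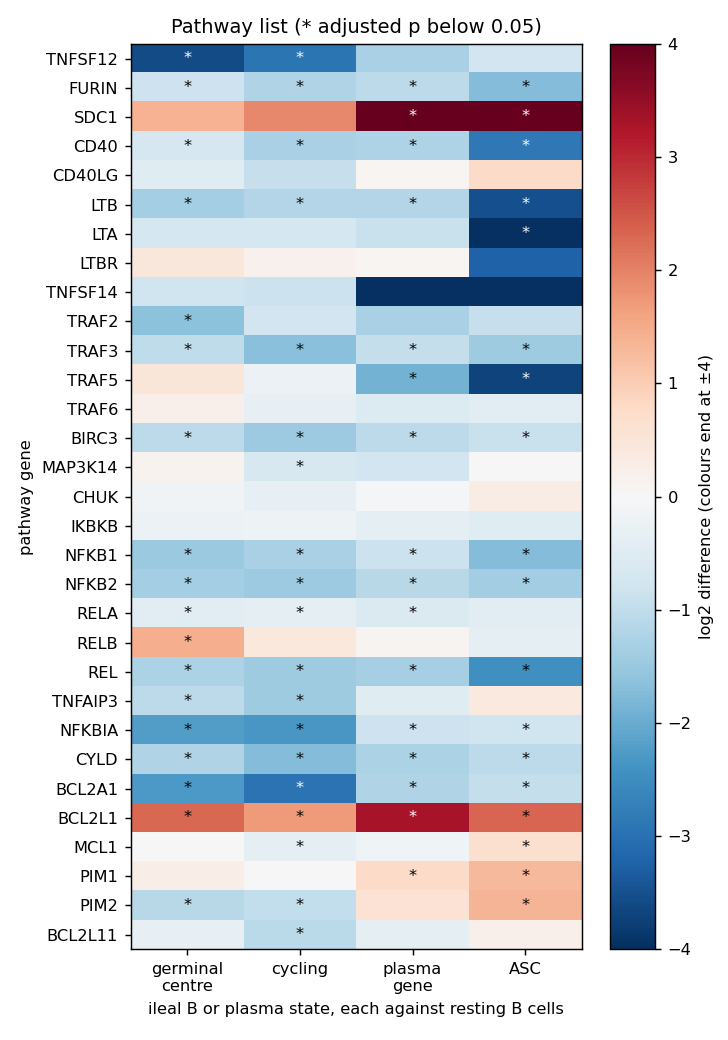
Log2 differences from resting B cells of the ileum (colour scale ending at ±4) for 31 pathway genes (rows) in 4 B lineage classes (columns), with a star for edgeR adjusted p below 0.05. *BCL2L1* is higher in all 4 columns, *NFKB1*, *NFKB2*, *REL* and *TRAF3* are lower in all 4, and *SDC1* is higher with a star in B cells with plasma genes (5.20) and in ASCs (8.37).

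The genes most like each member were taken by Pearson correlation of log2(CPM + 1) over 24 classes with at least 20 cells in each pig, among 8677 genes. These points share libraries, free RNA and lineage and carry no test. *TNFRSF13C* went with *CD22* (r = 0.96), *CD79B* (0.93), *SCIMP* (0.93), *CD40* (0.93) and *FCRLA* (0.93). *TNFRSF13B* went with *MZB1* (0.86), a plasma cell gene of antibody assembly, and *SLC15A2* (0.84) beside 3 genes without a symbol. *TNFRSF17* went with *SPCS1* (0.91), a subunit of the signal peptidase, beside 4 without a symbol. *TNFSF13B* went with *SLC8A1* (0.89), *SLC39A8* (0.89), *LAP3* (0.86), *CXCL10* (0.86) and *DOCK4* (0.84). The genes nearest to *TNFSF13*, led by *SLPI* (0.91) and *DEFB1* (0.86), rest on a member with few UMIs. Between members, the receptors were at 0.65 for *TNFRSF13B* with *TNFRSF17*, 0.55 for *TNFRSF13B* with *TNFRSF13C* and 0.23 for *TNFRSF13C* with *TNFRSF17*.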

How the data were processed

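Per the labels and the study's methods, the authors made 3′ libraries with 10x chemistry, aligned and counted reads with Cell Ranger against Sus scrofa 11.1 with a modified Ensembl annotation, and deposited unfiltered matrices of raw UMI counts per gene and barcode. Each of the 8 libraries had 4 sequencing runs, listed as 32 samples, and its matrix was counted as 1 library. The pig as labelled was the replicate, with n = 2, and whether further animals would vary more is not covered by the p-values. The ileal sums of pig 1 include the library that goes against its label, so ileal p-values may not measure the spread between separate animals. No column of values was left unmatched (0). The matrices paired 17733 gene IDs with symbols, a name table gave 977 more, and 7170 had none. Locus positions are from RefSeq.

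Cells were kept with at least 1250 UMIs, at least 550 genes and at most 12.5% mitochondrial UMIs, and simulated doublets (expected rate 0.07, score above 0.25) removed 2.72% to 3.76% of cells per library. Free RNA was not subtracted. Cells of each tissue were clustered without the 5 members, the pathway genes and Y-linked genes (3000 variable genes, 30 principal components, 20 neighbours, Leiden resolution 2 for ileum, 1.5 for blood and 0.3 for the myeloid split; Python 3.11.15, scanpy 1.11.5, igraph 0.11.9, scipy 1.17.1) and named from marker panels. T cells were split by *CD4*, *CD8B* and *TRDC* UMIs and blood B cells by *CCR7* UMIs. T cells with UMIs of none or several of the 3 genes, 6472 in the ileum and 2872 in blood, formed a class of their own. That class was left out of the T cell means used as reference. Simple marker gates had been planned, and the clusters, their resolution and the naming thresholds were set after seeing the data. Clusters not named held 216 ileal and 954 blood cells and entered no comparison.

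Counts were summed per pig and class (at least 10 cells) and tested with edgeR 4.0.16 in R 4.3.3 (filterByExpr with a minimum count of 10, TMM, quasi-likelihood test, Benjamini-Hochberg adjustment over all genes tested, threshold 0.05). The code was tested on simulated data. Alternatives were DESeq2 1.42.0, RLE size factors, no filter, no doublet removal, stricter gates, sums per library, pig as a block, each library or pig left out and, chosen after seeing the data, library totals alone and the cycling cluster with a median above 8000 UMIs left out. Same-numbered samples are labelled as the same pig, which the whole ileum library labelled pig 1 goes against. The deviations of the classes of 1 pig from the class means correlated with a median r of 0.179 in the ileum (-0.120 to 0.718) and 0.407 in blood.

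An upper limit, the level that 3 counts would give, is stated for the counts of 0 of *TNFSF13B* in mast cells and *TNFSF13* in macrophages. It covers counting error only. Other counts of 0 are given without a limit, and in classes or clusters of few cells they do not show that the transcript was absent. Genes named are the 5 members, the pathway list, and for each member the 5 genes most correlated across classes, while clusters were named after their values were seen. The members and lists were chosen with earlier results of these data known.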

Additional observations from a re-analysis of the deposited data

How the results depend on the processing

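Values are log2 differences. Without a filter on low counts, with pig as a replicate block and with stricter gates, *TNFRSF13C* in B cells with plasma genes passed the threshold (-0.80, -0.79 and -0.86). *TNFSF13B* in dendritic cells passed it with DESeq2, no doublet removal, no filter and stricter gates (2.04, 2.10, 1.87 and 2.21). *TNFRSF13B* in epithelial cells missed it with library totals alone, no doublet removal and stricter gates (0.80, 0.78 and 0.78). *TNFRSF17* in stromal cells, 4 UMIs of 1 cell, turned negative with stricter gates and with sums per library (-3.61 and -2.67). For the other members' results, the block on the labelled pig changed no call of a member.

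With 1 library or 1 pig left out, the differences from resting B cells ran from 0.79 to 1.31 for *TNFRSF13B* in B cells with plasma genes, -1.63 to -0.92 for *TNFRSF13B* in germinal centre B cells, -0.90 to -0.68 for *TNFRSF13C* in B cells with plasma genes, -1.48 to -1.08 for *TNFRSF13C* in cycling B cells and -2.62 to -1.21 for *TNFRSF17* in cycling B cells. The 4 of these that had been called each lost the call in at least 1 such setting. The differences from ileal T cells ran from -0.30 to 1.60 for *TNFSF13B* in epithelial cells, 2.02 to 2.97 for *TNFSF13B* in stromal cells, 2.75 to 4.59 for *TNFRSF13C* in dendritic cells, 1.02 to 2.31 for *TNFRSF13B* in group 1 ILCs, 0.25 to 2.04 for *TNFRSF13B* in epithelial cells and -3.71 to 3.74 for *TNFRSF17* in stromal cells, where both single pigs gave negative values (-2.84 and -2.54). In blood, where 1 pig alone allows a value and no test, monocytes minus T cells ran from 4.92 to 6.14 for *TNFSF13B* and 2.41 to 4.22 for *TNFRSF13C*. PP minus non-PP ASCs ran from -0.37 to 1.17 for *TNFRSF13B* and 0.84 to 10.2 for *TNFRSF13C*, whose non-PP sums hold 2 UMIs. The ASC calls of all 3 receptors and the *TNFSF13B* calls in macrophages and group 3 ILCs kept their direction and call in every setting that tested them.

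Stricter gates left non-PP sums under 10 cells, so they gave no PP against non-PP value. With library totals alone the median of all genes also moved in germinal centre B cells (0.00 to 0.19) and cycling B cells (0.00 to 0.14), where *CD40* and *RELA*, and *RELA*, *MAP3K14* and *MCL1*, lost their calls. Counts of pathway genes called moved by over 1.5 times with stricter gates in macrophages and in group 3 ILCs (13 to 8 in both) and between macrophages and monocytes (13 to 6), with the block in NK cells (8 to 13) and PP against non-PP ASCs (0 to 1), without a filter in the latter (0 to 2), with sums per library in mast cells (9 to 5) and without the whole ileum library labelled pig 1 in group 1 ILCs (12 to 7). The causes of these changes were not tested. Depth limits *TNFSF13* and all values outside the B lineage that rest on few UMIs.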
